A study of Mus musculus with 13 samples.

Results

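Photoreceptor transcription factors are described here in RNA-seq libraries of mouse retinal cells sorted for Thy1.2, a surface protein of retinal ganglion cells (RGCs). The 10 genes were chosen by name (Crx, Crxos, Nrl, Nr2e3, Otx2, Neurod1, Rorb, Thrb, Rxrg and Prdm1) and found by Ensembl gene ID among the 52550 genes of the deposited count table. All 10 passed the filter on low counts in every comparison. AAV2-Cre RGCs (2 libraries) and AAV2-GFP RGCs (3 libraries) came from mice with floxed Kdm6a, whose eyes were injected with adeno-associated virus carrying Cre recombinase or GFP and whose optic nerves were then crushed, 3 days before collection. The labels call the AAV2-Cre genotype "UTX knockout", after the other name of the histone demethylase Kdm6a, and the AAV2-GFP genotype "GFP". They give the age of both as P42, whereas the methods describe injection of adults from about that age and crush some time later. P1 (3 libraries), P14 (3) and P21 (2) RGCs came from WT mice without virus or injury at postnatal days 1, 14 and 21. Crush was common to AAV2-Cre and AAV2-GFP RGCs, so injury as such was not compared, and age, injury, virus and dataset differ together between the adult and the developmental libraries. The promoter driving Cre and the number of mice per library were not given in the sources used here, and p-values therefore measure the spread between these libraries.

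Rods and cones are made from retinal progenitors through a small network of transcription factors. Otx2 commits cells to the photoreceptor and bipolar fates, and Prdm1 (Blimp1) keeps the photoreceptor fate by holding back the bipolar one. Crx, a homeobox factor related to Otx2, drives the genes of phototransduction and the outer segment in both kinds of photoreceptor, while Nrl and its target Nr2e3 impose the rod fate and silence cone genes. Thrb and Rxrg, receptors for thyroid hormone and retinoids, shape cones and the choice of cone opsin, and Rorb and Neurod1 act in rods and cones as well as in other retinal neurons. Most of these factors are also found outside photoreceptors, Crx and Otx2 in bipolar cells, Rxrg in developing RGCs and Prdm1 in plasma cells.

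Crx and Crxos are neighbours on chromosome 7 (GRCm38), Crx at 15865947 to 15879968 on the minus strand and Crxos, a homeobox gene named for its place opposite Crx, at 15882617 to 15904020 on the plus strand. The genes do not overlap and 2648 bp separate them, head to head. Promoters from 250 bases before to 50 bases after the start, taken from RefSeq (GRCm38.p6), were matched for 10 of 10 genes, with 18 starts in all. They were searched on both strands for the CRX and OTX site TAATCC, the NRL and MAF half-site TGCTGA, the nuclear receptor half-site AGGTCA and the NEUROD1 E-box CATCTG. The 14 matches fell in 10 promoters of 8 genes and none overlapped another. The promoters of Crx and of the first start of Crxos are shown because Crxos fell in the adult comparison while its neighbour did not pass the test, and those of Nrl and Nr2e3 because both rod factors rose and then fell in development. Capitals mark the matches.
Crx promoter, chr7:15879906-15880205, minus strand: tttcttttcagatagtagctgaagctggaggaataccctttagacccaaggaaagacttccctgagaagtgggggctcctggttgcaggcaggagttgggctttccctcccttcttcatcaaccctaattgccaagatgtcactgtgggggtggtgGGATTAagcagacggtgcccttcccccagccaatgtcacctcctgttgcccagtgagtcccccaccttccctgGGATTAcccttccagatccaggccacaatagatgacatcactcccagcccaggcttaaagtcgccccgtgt
Crxos promoter, chr7:15882367-15882666, plus strand: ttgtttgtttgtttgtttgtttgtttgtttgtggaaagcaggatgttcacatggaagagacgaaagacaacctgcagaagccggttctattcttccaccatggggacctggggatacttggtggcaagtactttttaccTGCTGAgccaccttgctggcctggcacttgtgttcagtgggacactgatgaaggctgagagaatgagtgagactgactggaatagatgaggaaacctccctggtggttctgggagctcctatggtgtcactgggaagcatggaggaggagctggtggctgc
Nrl promoter, chr14:55524203-55524502, minus strand: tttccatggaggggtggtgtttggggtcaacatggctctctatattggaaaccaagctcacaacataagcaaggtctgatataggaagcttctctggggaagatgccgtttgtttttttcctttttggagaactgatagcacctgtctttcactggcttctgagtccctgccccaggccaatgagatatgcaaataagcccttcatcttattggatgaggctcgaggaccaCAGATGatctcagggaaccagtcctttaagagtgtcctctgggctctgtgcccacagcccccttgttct
Nr2e3 promoter, chr9:59950030-59950329, minus strand: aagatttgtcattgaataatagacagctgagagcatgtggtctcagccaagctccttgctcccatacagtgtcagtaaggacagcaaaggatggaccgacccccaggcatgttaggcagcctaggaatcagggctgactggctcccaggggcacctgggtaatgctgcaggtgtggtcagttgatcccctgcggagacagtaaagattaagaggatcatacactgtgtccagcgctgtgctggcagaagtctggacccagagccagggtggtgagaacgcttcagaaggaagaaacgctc
The Crx promoter held the CRX and OTX site on the opposite strand (GGATTA) at 94 and 21 bases before the start, a motif found in 7.06% of all 32851 promoters of this length. The Crxos promoter held 1 NRL and MAF half-site, found in 19.5% of promoters, and no CRX and OTX site. The Nrl promoter held the E-box as CAGATG 19 bases before the start, a motif in 17.2% of promoters, and AGGTCA, with none in these 4 windows, was in 16.3%. The Nr2e3 window held none of the 4 motifs. A match describes letters only and is no evidence of binding.

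Sequencing yielded 13637602 to 16070720 counts in the adult libraries and 30357454 to 38812917 in the developmental ones. Levels are given as CPM, the usual scaling of each count to a common library total, with TMM factors over all 13 libraries. The sort label was checked first. RGC markers (19 genes) summed to 459 to 542 CPM in AAV2-Cre RGCs and 466 to 542 CPM in AAV2-GFP RGCs, with 12330 to 13620 CPM at P1, 1530 to 1751 CPM at P14 and 530.3 to 1035 CPM at P21. The RGC marker Pou4f2 was at 0 in both AAV2-Cre libraries and at 0 to 0.139 CPM in the AAV2-GFP ones. Of 17 RGC markers tested between these groups by edgeR, 1 fell and 0 rose (median log2 fold change 0.32). Rod genes (30 genes) summed to 16860 and 35940 CPM in AAV2-Cre RGCs, against 42570, 34540 and 36880 CPM in AAV2-GFP RGCs. The summed CPM of rod genes was thus far above that of RGC markers in every adult library, against the RGC label. In development rod genes summed to 247 to 281 CPM at P1, 1663 to 1892 CPM at P14 and 1227 to 1232 CPM at P21. Markers of Muller glia (15 genes), the radial glia of the retina, summed to 5338 to 8411 CPM in AAV2-Cre RGCs and 3457 to 6173 CPM in AAV2-GFP RGCs, with 2512 to 6736 CPM at P1, 23570 to 24870 CPM at P14 and 42980 to 44130 CPM at P21. The P14 and P21 libraries thus also went against the label. In the group names used here, "RGCs" stands for the sort only. Microglia and macrophage markers (14 genes) summed to 9838 to 13200 CPM in AAV2-Cre RGCs and 7595 to 10660 CPM in AAV2-GFP RGCs, and to at most 407 CPM in development. Kdm6a itself did not separate the groups, at 108 and 111 CPM in AAV2-Cre RGCs and 111, 96.2 and 117 CPM in AAV2-GFP RGCs. The loxP sites flank a single exon, which counts per gene do not measure apart, so its loss was not tested.

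Every factor was detected in every library. Crx, Crxos, Nrl, Nr2e3, Neurod1, Rorb, Thrb and Prdm1, 8 of the 10, were higher in each of the 5 adult libraries than in any of the 8 developmental libraries, as were 24.6% of the 20874 genes with at least 1 CPM in a library. Nr2e3 ran from 279.6 to 775 CPM in adult libraries, against 3.18 to 23.6 CPM in developmental ones, and Nrl from 193 to 524 CPM against 8.43 to 41.7 CPM. Otx2 overlapped, at 117 to 208 CPM in adult libraries and 44.4 to 188 CPM in developmental ones, and so did Rxrg, at 19.5 to 35.0 CPM against 2.70 to 67.3 CPM. No test was made across the datasets, whose differences cannot be told apart.

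**Figure D1:**
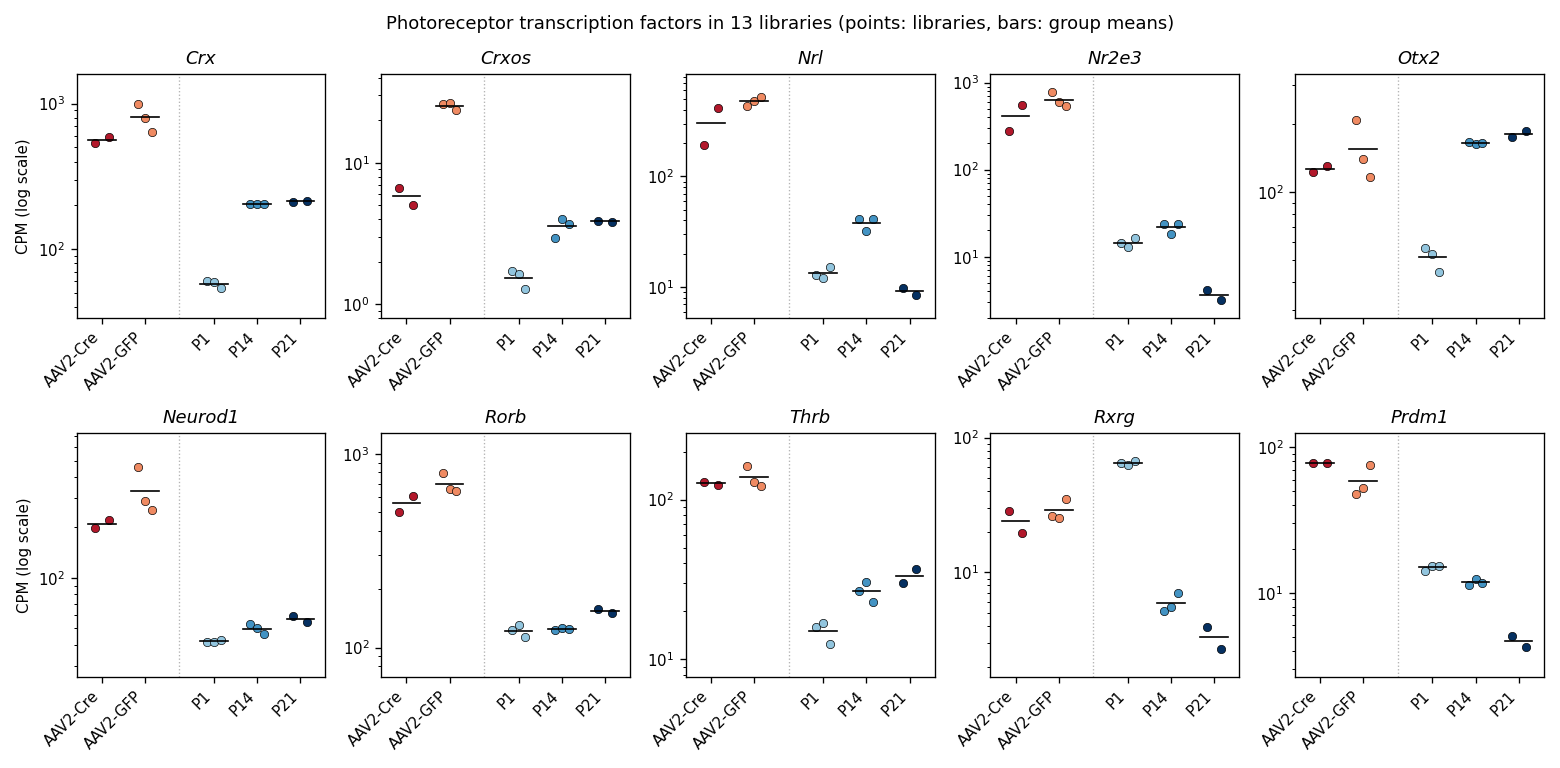
Level of each of the 10 factors in CPM (log axis) in every library, AAV2-Cre and AAV2-GFP RGCs left of the dotted line and P1, P14 and P21 RGCs right of it, with points for libraries and bars for group means. The 8 factors other than Otx2 and Rxrg are higher in all 5 adult libraries than in any developmental one, and Crxos is at 5.06 and 6.67 CPM in AAV2-Cre RGCs with no AAV2-GFP library under 23.6 CPM.

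Levels were compared between genes per kb of exon. Crx led in AAV2-Cre RGCs at a mean of 178 CPM per kb, followed by Nr2e3 at 123 CPM per kb, and the libraries of the pair did not overlap. In AAV2-GFP RGCs Crx (255 CPM per kb), Nr2e3 (189 CPM per kb) and Neurod1 (121 CPM per kb) led in that order, with overlap between each and the next of the 3. Crxos was the lowest in both groups, at 1.98 CPM per kb in AAV2-Cre RGCs and 8.60 CPM per kb in AAV2-GFP RGCs, where its libraries overlapped those of Prdm1 (10.5 CPM per kb). At P1 the order was another one, with Rxrg first at 28.2 CPM per kb, Crx next at 18.4 CPM per kb and no overlap between them. Nrl (2.33 CPM per kb) overlapped both its neighbours at P1, Prdm1 (2.68 CPM per kb) and Thrb (2.04 CPM per kb). From P14 on Crx led and Otx2 came next, at 64.6 and 39.1 CPM per kb at P14 and 67.4 and 43.1 CPM per kb at P21, again without overlap. Nr2e3 stood in the ninth place of 10 at P21, at 1.08 CPM per kb, above Prdm1 at 0.836 CPM per kb and below Crxos at 1.31 CPM per kb.

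The first comparison set AAV2-Cre against AAV2-GFP libraries, both sorted as RGCs from injured adults. Crxos was the one factor that passed the test, and it fell. In AAV2-Cre RGCs it had 6.67 and 5.06 CPM (94 and 80 counts), against 26.3, 26.4 and 23.6 CPM (379, 439 and 397 counts) in AAV2-GFP RGCs. The groups were well apart and the libraries within each close together. The log2 fold change was -2.16 ± 0.27 (SE), 4.46-fold lower, with an adjusted p of 0.011 (edgeR quasi-likelihood test, Benjamini-Hochberg over 18395 genes). Thus 1 of 10 factors was called, where 1.62% of all genes were called in either direction, 1.33% as higher and 0.294% as lower. The call was lost without AAV2-Cre replicate 1 (adjusted p = 0.104) or without AAV2-Cre replicate 2 (adjusted p = 0.105), fits in which 8 and 5 genes in all were called by edgeR, and over all alternatives the adjusted p ran from 2.16e-11 to 0.105.

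Its neighbour Crx did not pass. It had 532 and 590.3 CPM in AAV2-Cre RGCs, against 991, 792 and 636 CPM in AAV2-GFP RGCs, without overlap (log2 fold change -0.56 ± 0.20, adjusted p = 0.195 by edgeR). The ratio of Crxos to Crx within a library was 0.0125 and 0.00857 in AAV2-Cre RGCs, against 0.0265, 0.0334 and 0.0371 in AAV2-GFP RGCs. Crxos was therefore low beside Crx as well as in CPM, in both AAV2-Cre libraries.

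Neither rod factor passed the test, and 1 AAV2-Cre library was low in both. Nrl had 193 and 417 CPM in AAV2-Cre RGCs, against 432, 479 and 524 CPM in AAV2-GFP RGCs (log2 fold change -0.69 ± 0.28, adjusted p = 0.265 by edgeR). Nr2e3 had 279.6 and 547 CPM in AAV2-Cre RGCs, against 775, 604 and 533 CPM in AAV2-GFP RGCs (log2 fold change -0.67 ± 0.28, adjusted p = 0.271 by edgeR). AAV2-Cre replicate 1 was the low library for both, and it was also the library low in summed rod genes. Set against 1000 CPM of rod genes, Nrl was at 11.4 to 11.6 CPM in AAV2-Cre RGCs and 10.2 to 14.2 CPM in AAV2-GFP RGCs, and Nr2e3 at 15.2 to 16.6 CPM and 14.4 to 18.2 CPM in the same groups. Both overlapped, whereas Crxos on the same scale was at 0.141 to 0.395 CPM in AAV2-Cre RGCs and 0.618 to 0.765 CPM in AAV2-GFP RGCs. In bulk libraries fewer cells of a type and less RNA per cell cannot be told apart.

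Neurod1, a basic helix-loop-helix factor of photoreceptors and amacrine cells, had 198 and 222 CPM in AAV2-Cre RGCs, against 456, 287 and 253 CPM in AAV2-GFP RGCs (adjusted p = 0.199, edgeR). Rorb, an orphan nuclear receptor upstream of Nrl, had 503 and 608 CPM in AAV2-Cre RGCs, against 797, 660.5 and 645 CPM in AAV2-GFP RGCs (adjusted p = 0.287, edgeR). Both were lower without overlap and neither passed the test. Otx2 had 123 and 131 CPM in AAV2-Cre RGCs, against 208, 140 and 117 CPM in AAV2-GFP RGCs, and the groups overlapped (adjusted p = 0.548, edgeR). AAV2-GFP replicate 1 was the highest of its group for these 3 factors, for Crx, for Nr2e3 and for Thrb, and it was the adult library lowest in B and plasma cell markers.

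The cone receptors overlapped between groups. Thrb had 129 and 123 CPM in AAV2-Cre RGCs, against 163, 129 and 122 CPM in AAV2-GFP RGCs (adjusted p = 0.696, edgeR), and counts per gene do not separate its cone isoform from the others. Rxrg had 28.3 and 19.5 CPM in AAV2-Cre RGCs, against 26.0, 25.5 and 35.0 CPM in AAV2-GFP RGCs (adjusted p = 0.612, edgeR).

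Prdm1 was the one factor with higher values in AAV2-Cre RGCs, without passing the test. It had 77.7 and 78.2 CPM in AAV2-Cre RGCs, against 47.8, 52.6 and 75.3 CPM in AAV2-GFP RGCs (log2 fold change 0.37 ± 0.21, adjusted p = 0.441 by edgeR). The groups did not overlap, but AAV2-GFP replicate 3 lay close under the AAV2-Cre libraries. Markers of B and plasma cells, which use Prdm1 too, summed to 20190 and 24970 CPM in AAV2-Cre RGCs and 4061, 13100 and 10770 CPM in AAV2-GFP RGCs, and 3 of the 13 tested were called higher. Their part in the result was not tested. Over the 10 factors, 6 did not overlap between the groups, as did 35.4% of all genes. Of these 5 were lower (Crx, Crxos, Neurod1, Nrl and Rorb), where 15.7% of all genes were, and Prdm1 was higher, as were 19.8% of all genes. Without the filter on low counts, edgeR called 5 factors lower, adding Crx, Nrl, Nr2e3 and Neurod1 to Crxos. That fit called 543 genes lower and 969 higher of 28763 tested.

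**Figure D2:**
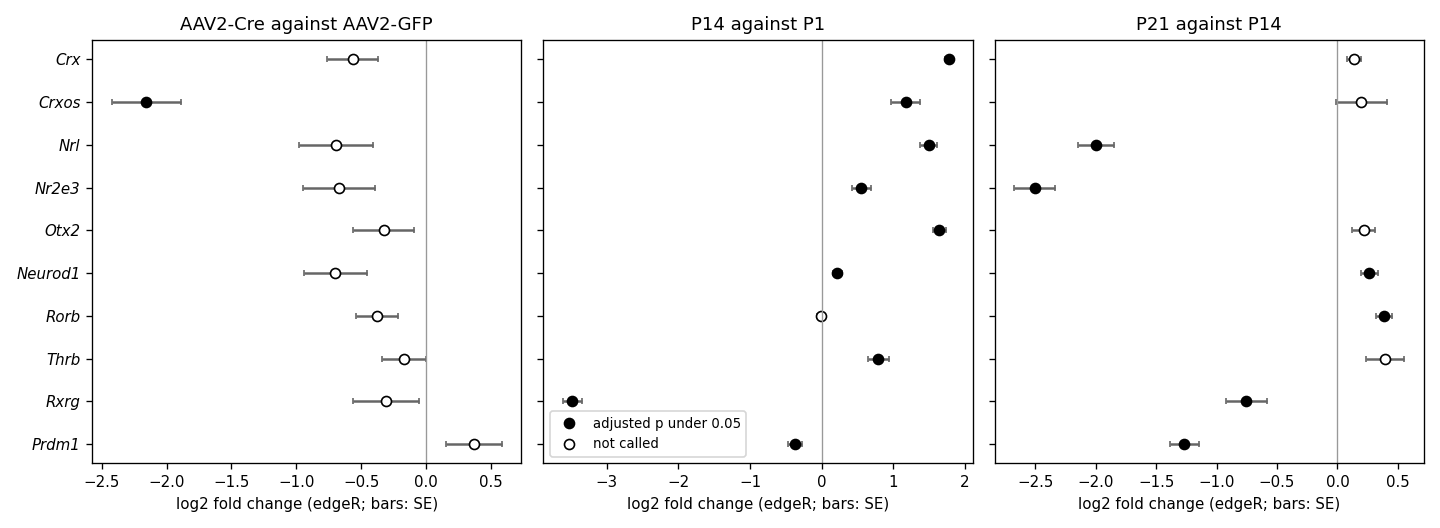
Log2 fold change of each factor in the 3 comparisons (edgeR, bars show SE, filled points mark an adjusted p under 0.05), each panel with its own axis. Crxos at -2.16 is the filled point among AAV2-Cre against AAV2-GFP, and Nr2e3 at -2.51 and Nrl at -1.997 lie lowest in P21 against P14.

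How many rod, cone and partner genes passed the test in adults depended on the fit. No rod gene of 30 was called by edgeR, where 11 had an unadjusted p under 0.05. By contrast, edgeR without the filter on low counts called 16, edgeR with all 13 libraries in one fit 4, DESeq2 5 and limma-voom 1, all lower. In the main edgeR fit the median log2 fold change of the 30 rod genes was -0.61, against -0.03 over all genes tested. Gnat1, rod transducin, was at a mean of 5595 CPM in AAV2-Cre RGCs and 7893 CPM in AAV2-GFP RGCs (adjusted p = 0.383, edgeR). Rp1, a protein of the photoreceptor axoneme, had the smallest p of the rod genes (log2 fold change -1.32 ± 0.33, adjusted p = 0.0877 by edgeR), followed by Cabp4, a calcium-binding protein of photoreceptor synapses (-0.71, adjusted p = 0.0928), and Tulp1, a protein of photoreceptor transport (-0.66, adjusted p = 0.0979). The arrestin Sag was not called either (-0.44, adjusted p = 0.507, edgeR). Of 14 cone genes Arr3, cone arrestin, and Slc24a2, a cone sodium-calcium exchanger also made in other neurons, fell (log2 fold changes -1.03 and -1.12, adjusted p = 0.0447 and 0.0472 by edgeR), while the cone opsin Opn1sw was at 2839 ± 183 CPM in AAV2-Cre RGCs (SD, n = 2) and 3249 ± 123 CPM in AAV2-GFP RGCs (SD, n = 3) and was not called. Grk1, the opsin kinase of rods and cones, Gnat2 and Gnb3 did not pass (log2 fold changes -0.88, -0.31 and -0.24, adjusted p = 0.0674, 0.31 and 0.491 by edgeR). Of 44 transcriptional partners and neighbours, 42 were tested and 2 fell. Isl1, a homeobox factor of RGCs and ON bipolar cells, was at 39.0 ± 8.2 CPM in AAV2-Cre RGCs and 91.3 ± 9.8 CPM in AAV2-GFP RGCs (SD, log2 fold change -1.27 ± 0.20, adjusted p = 0.0216 by edgeR). Pias3, a SUMO ligase that acts with Crx and Nr2e3, was at 33.4 ± 1.7 CPM in AAV2-Cre RGCs and 65.4 ± 7.5 CPM in AAV2-GFP RGCs (log2 fold change -1.01 ± 0.18, adjusted p = 0.0355). Esrrb, a nuclear receptor of rods, had the largest difference in this list without passing (log2 fold change -1.67 ± 0.34, adjusted p = 0.0524 by edgeR). Neither cone gene was called with DESeq2 size factors or with the replicate number as a block, and those fits called 2 partners and 1. DESeq2 called 3 cone genes and 6 partners lower, limma-voom 3 and 4, and edgeR without the filter on low counts 3 and 7. With all 13 libraries in one fit, edgeR called 3 cone genes and 7 partners lower, and 1 cone gene higher. With 1 library left out, edgeR called 1 cone gene without AAV2-GFP replicate 1 and 1 partner without AAV2-GFP replicate 3, and none of either list without each of the other libraries.

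**Figure D3:**
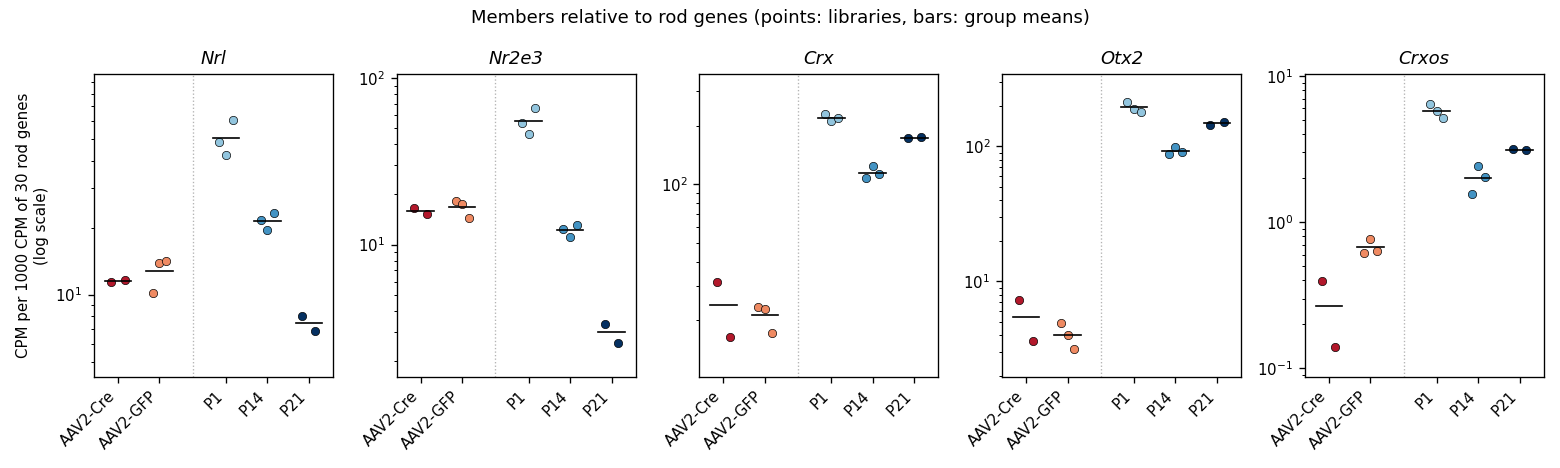
CPM of 5 factors per 1000 CPM of the 30 rod genes in each library (log axis), with points for libraries and bars for group means. Nrl and Nr2e3 overlap between AAV2-Cre and AAV2-GFP RGCs and step down at P1, P14 and P21, while Crxos is at 0.141 and 0.395 in AAV2-Cre RGCs, under the 0.618 of the lowest AAV2-GFP library.

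The developmental comparisons set libraries of sorted cells at a later age against those at an earlier one, first P14 against P1. Here 7 of 10 factors rose at P14 and 2 fell, where 33.6% of all 20890 genes rose and 33.6% fell, 67.1% in all. Libraries of the 2 ages did not overlap for the same 9 factors, as for 73.9% of all genes (38% higher and 35.9% lower). Crx and Otx2 had the largest rises. Crx had 60.8, 59.3 and 54.1 CPM at P1, 204, 205 and 203 CPM at P14, and 211 and 215 CPM at P21. It was 3.44-fold higher at P14 than at P1 (log2 fold change 1.78 ± 0.06, adjusted p = 9.35e-09 by edgeR) and did not pass between P21 and P14 (adjusted p = 0.114), although the libraries did not overlap. Otx2 had 56.7, 53.4 and 44.4 CPM at P1, 166, 164 and 165 CPM at P14, and 176 and 188 CPM at P21. Its rise to P14 was 3.14-fold (log2 fold change 1.65 ± 0.09, adjusted p = 1.25e-07 by edgeR) and again P21 was not called (adjusted p = 0.104). The ratio of Otx2 to Crx within a library was 0.820 to 0.933 at P1, 0.801 to 0.816 at P14 and 0.835 to 0.873 at P21, whereas it was 0.222 to 0.230 in AAV2-Cre RGCs and 0.176 to 0.210 in AAV2-GFP RGCs. Exons of Otx2 share 322 bp with Otx2os1 and Gm49154, and the strand setting of the counting was not stated.

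Bipolar markers, which cells with Crx and Otx2 also carry, moved with these factors. All 18 rose at P14 and their sum was 591 to 898 CPM at P1, 5901 to 6042 CPM at P14 and 5364 to 5860 CPM at P21. Per 1000 CPM of bipolar markers Crx was at 66.0 to 91.4 CPM at P1, 33.7 to 34.5 CPM at P14 and 36.7 to 39.4 CPM at P21, so it rose less than that list. Muller glia markers rose at P14 as well, 15 of 15 with a median log2 fold change of 2.19, as did 14 of 14 microglia and macrophage markers (median 3.62). The part of these cells in the rises at P14 was not tested.

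Crxos rose at P14 with Crx but stayed rare. It had 1.70, 1.63 and 1.28 CPM at P1, 2.95, 4.03 and 3.69 CPM at P14, and 3.899 and 3.83 CPM at P21 (44 to 143 counts a library). The rise to P14 passed (log2 fold change 1.18 ± 0.20, adjusted p = 0.000515 by edgeR) and P21 overlapped P14 (adjusted p = 0.503). Its ratio to Crx was 0.0237 to 0.0280 at P1, 0.0145 to 0.0196 at P14 and 0.0178 to 0.0185 at P21, each above both AAV2-Cre libraries.

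Nrl and Nr2e3, the rod-determining pair, rose to P14 and then fell steeply. Nrl had 12.8, 11.9 and 15.1 CPM at P1, 40.9, 32.3 and 41.7 CPM at P14, and 9.80 and 8.43 CPM at P21. The log2 fold change was 1.498 ± 0.122 for P14 against P1 (adjusted p = 2.54e-06) and -1.997 ± 0.146 for P21 against P14 (adjusted p = 1.87e-05, edgeR), and both P21 libraries lay under all P1 libraries. Nr2e3 had 14.3, 13.0 and 16.3 CPM at P1, 23.4, 18.4 and 23.6 CPM at P14, and 4.12 and 3.18 CPM at P21. Its log2 fold change was 0.56 ± 0.13 for P14 against P1 (adjusted p = 0.00354) and -2.51 ± 0.17 for P21 against P14 (adjusted p = 1.38e-05, edgeR), 5.68-fold lower. P14 replicate 2 was the lowest of its group for both. Over the step to P21, 5 of 15 Muller glia markers rose and none fell (median log2 fold change 0.87), and 13 of 14 microglia and macrophage markers fell (median -1.82). Their part in the fall of Nrl and Nr2e3 was not tested. In P21 against P14, 2 of 10 factors rose and 4 fell, where 14.6% of all genes rose and 19.3% fell (3047 and 4024 genes, or 2326 and 4722 when libraries were scaled by size alone), 33.8% in all. Libraries did not overlap for 4 factors higher and 4 lower at P21, 8 in all, where 23.2% of all genes were higher, 36.1% lower and 59.3% either.

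Relative to rod genes, this pair was lower at each later age of the developmental libraries. The adult values on this scale, given above, were higher than those at P21. Per 1000 CPM of rod genes, Nrl was at 42.5 to 61.0 CPM at P1, 19.4 to 23.2 CPM at P14 and 6.84 to 7.99 CPM at P21. Nr2e3 was at 46.2 to 65.8 CPM at P1, 11.1 to 13.1 CPM at P14 and 2.58 to 3.36 CPM at P21 on the same scale. Groups did not overlap for either gene on this scale, even between P1 and P14, where the CPM of both rose. The ratio of Nr2e3 to Nrl also stepped down, 1.08 to 1.11 at P1, 0.566 to 0.572 at P14 and 0.377 to 0.420 at P21, while in adults it ran from 1.31 to 1.45 in AAV2-Cre RGCs and from 1.02 to 1.79 in AAV2-GFP RGCs. An exact two-sided permutation test of such ratios cannot go below p = 0.1 with 3 against 3 libraries or 0.2 with 2 against 3, and none was run. Exons of Nr2e3 share 61 bp with Gm15507.

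**Figure D4:**
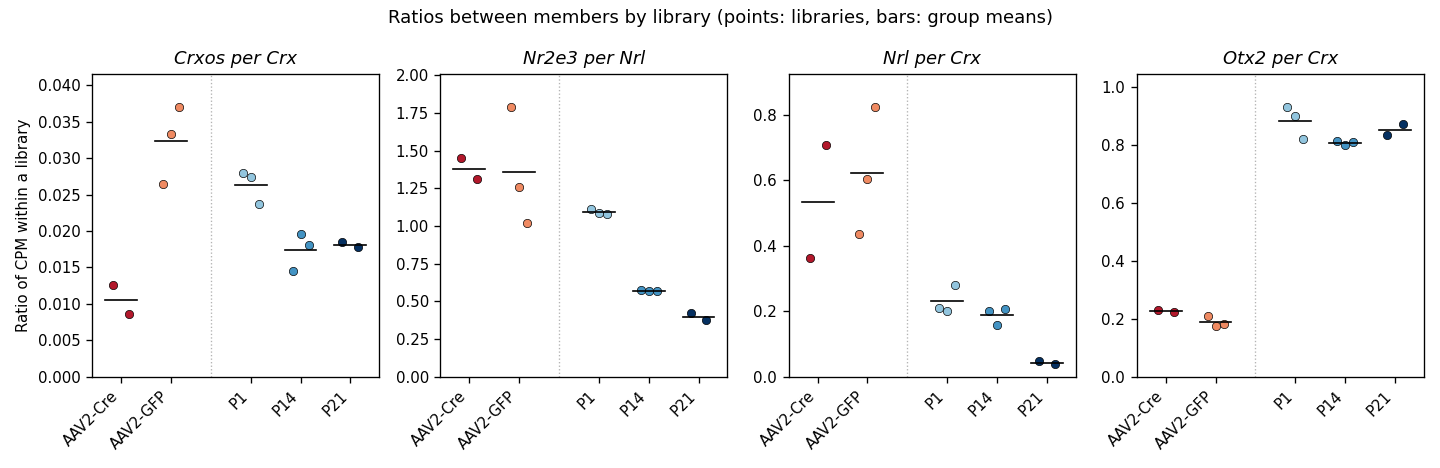
Ratio of CPM between pairs of factors within each library, with points for libraries and bars for group means. Crxos per Crx is lowest in AAV2-Cre RGCs (0.00857 and 0.0125), Nr2e3 per Nrl steps down at P1, P14 and P21, and Otx2 per Crx is 0.801 to 0.933 in every developmental library but 0.176 to 0.230 in adult ones.

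Rorb and Neurod1 changed little in development. Rorb had 123, 130.1 and 113 CPM at P1, 123, 127 and 124 CPM at P14, and 158 and 151 CPM at P21. P14 and P1 overlapped (adjusted p = 0.969 by edgeR). The rise at P21 was small but passed (log2 fold change 0.38 ± 0.06, adjusted p = 0.00158 by edgeR). It did not pass by edgeR with all 13 libraries in one fit (adjusted p = 0.0994, with 1.74e-06 to 0.0994 over all alternatives), and it was under a fold limit of 2. Neurod1 had 41.8, 41.3 and 42.6 CPM at P1, 53.1, 50.04 and 46.4 CPM at P14, and 59.1 and 54.8 CPM at P21. It rose at each step (log2 fold changes 0.22 and 0.27, adjusted p = 0.011 and 0.0154 by edgeR). Neither rise reached a fold limit of 2. The call at P14 was lost with all 13 libraries in one fit (adjusted p = 0.286, with 0.000613 to 0.286 over all alternatives). The call at P21 was lost in that fit too (adjusted p = 0.599) and without P21 replicate 1 (adjusted p = 0.0901, with 0.00807 to 0.599 over all alternatives). Exons of Neurod1 share 355 bp with Cerkl and Gm26755.

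The cone receptors took opposite courses. Thrb had 15.9, 16.9 and 12.5 CPM at P1, 26.7, 30.6 and 23.0 CPM at P14, and 30.1 and 36.6 CPM at P21. It was 1.73-fold higher at P14 than at P1 (log2 fold change 0.79 ± 0.15, adjusted p = 0.000924 by edgeR), and P21 overlapped P14 (adjusted p = 0.0851). Rxrg had 64.5, 62.7 and 67.3 CPM at P1, 5.13, 5.54 and 7.04 CPM at P14, and 3.95 and 2.70 CPM at P21. It was 11.2-fold lower at P14 than at P1, the largest change among the 10 factors (log2 fold change -3.48 ± 0.13, adjusted p = 1.92e-08 by edgeR), and fell again at P21 (log2 fold change -0.75 ± 0.17, adjusted p = 0.00784). The fall at P21 was under a fold limit of 2. The P21 call was lost without P21 replicate 2 (adjusted p = 0.0584, with 0.000105 to 0.0584 over all alternatives). RGC markers moved with it, since 17 of 19 fell and 2 rose at P14, and their sums are those given above. Their part in the result was not tested. Rxrg per Thrb was 3.72 to 5.40 at P1 and at most 0.306 in every other library of the series.

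Prdm1 fell at both steps. It had 14.0, 15.4 and 15.4 CPM at P1, 11.4, 12.5 and 11.6 CPM at P14, and 5.08 and 4.25 CPM at P21. The small fall at P14 passed (log2 fold change -0.37 ± 0.10, adjusted p = 0.00696 by edgeR) but was under a fold limit of 2. It did not pass when libraries were scaled by size alone (adjusted p = 0.0511) or with all 13 libraries in one fit (adjusted p = 0.0945, with 0.00419 to 0.0945 over all alternatives). The fall at P21 was 2.41-fold (log2 fold change -1.27 ± 0.12, adjusted p = 6.46e-05 by edgeR). B and plasma cell markers were low throughout development, at 101 to 118 CPM in sum, and Ms4a1, Pax5, Igkc and Iglc2 were at 0 in both P21 libraries. Prdm1 per Otx2 was 0.248 to 0.347 at P1, 0.0685 to 0.0759 at P14 and 0.0226 to 0.0288 at P21, without overlap.

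Rod genes rose at P14 almost as a whole and fell in part at P21. Of 30 rod genes 29 rose at P14 (median log2 fold change 2.70, against -0.01 over all genes), and 20 fell and 2 rose at P21 (median -0.80, against -0.003 over all genes). Gnat1 was at 9.25 ± 2.32 CPM at P1, 148 ± 14 CPM at P14 (SD, n = 3 each) and 56.3 ± 8.4 CPM at P21 (SD, n = 2), with log2 fold changes of 3.97 and -1.32. Pde6g, the inhibitory subunit of the rod phosphodiesterase, rose and fell likewise (3.40 and -1.03), and so did Pdc, phosducin (2.26 and -1.25), Sag (3.29 and -0.89) and Rp1 (2.22 and -1.68). Aipl1, a chaperone of the phosphodiesterase, rose (2.29) and was not called at P21 (-0.05, adjusted p = 0.58, edgeR). Of 14 cone genes 13 rose at P14 (median 2.44), and at P21 6 fell and 4 rose (median -0.23). Opn1sw rose and then fell (2.56 and -1.42), as did the potassium channel subunit Kcne2 (3.53 and -0.78), Grk1 (2.91 and -0.35) and Pde6h, a subunit of the cone phosphodiesterase (2.90 and -0.33). Gnb3, a cone and bipolar G protein subunit, rose (2.86) and was not called at P21 (-0.17, adjusted p = 0.29, edgeR), while Gnat2, cone transducin, rose at both steps (1.96 and 0.90).

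The transcriptional partners were mixed. Of 44, 25 rose and 17 fell at P14 (median log2 fold change 0.31), and 8 rose and 20 fell at P21 (median -0.07). Prdm8, needed by rod bipolar cells, rose and then fell (2.34 and -1.29), and Mef2c, a MADS-box factor that is also strong in microglia, did the same (2.80 and -2.42). Tbx2, a T-box factor needed by ultraviolet cones in zebrafish, rose at P14 (1.20), whereas the thyroid hormone receptor Thra fell (-1.41) as Thrb rose. Pax6, a homeobox factor of amacrine cells and RGCs, fell at P14 (-0.39) and rose at P21 (0.35).

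Genes with the most similar course were ranked over 13 libraries by Pearson r of log2 CPM after the mean of each dataset was subtracted, among 14001 genes. The libraries share depth and group, so r is a description only. Crx was most like Fyco1 (r = 0.993), Tbcel (0.992) and Ufl1 (0.991), and Otx2 most like Purb (0.992), Phf21b (0.99) and Fyco1 (0.988). Rxrg was closest to Ablim3 (0.998), Soga3 (0.997) and Ube2d1 (0.996). Nrl was closest to Doc2b (0.973), Sgk1 (0.953) and Slc19a1 (0.949), and Nr2e3 to Hs3st3b1 (0.966) and Stard9 (0.93). The list of Prdm1 held Fam111a (0.983), H2-Eb1 (0.979), a class II antigen gene, and Sidt1 (0.975). Crxos was closest to Dnm1 (0.979), Cnot3 (0.972) and Sema3d (0.971), and to none of the genes most like Crx. Neurod1 was closest to Fbxl20 (0.974), Wrnip1 (0.959) and Wdr78 (0.958), Rorb to 3222401L13Rik (0.971), Tnrc6b (0.961) and Rasgrf2 (0.953), and Thrb to Zfp110 (0.973), Kcnh6 (0.969) and Kcnma1 (0.968). Among the factors themselves the closest pairs were Crx with Otx2 (0.989), Otx2 with Thrb (0.945) and Crx with Thrb (0.919), followed by Neurod1 with Rorb (0.854) and Nrl with Nr2e3 (0.825). Crx and Otx2 ran most against Rxrg (-0.941 and -0.952), and Crx and Nr2e3 were nearly unrelated (-0.133).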

How the data were processed

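Whole counts per gene were deposited for 13 libraries. These counts are the output of featureCounts (Subread 2.0.3), which the authors ran on HISAT2 2.2.1 alignments to GRCm38 after trimming in Trimmomatic 0.39 and quality control in FastQC 0.11.9. The annotation release and strand setting were not given in the sources used here. Symbols were matched by Ensembl ID for 52403 of 52550 genes. The 5 adult and 8 developmental libraries were fitted apart with edgeR 4.0.16 (TMM, filterByExpr, glmQLFit and glmQLFTest, R 4.3.3), with Benjamini-Hochberg adjustment over all genes tested and a call at an adjusted p under 0.05. The biological coefficient of variation was 0.34 in adults and 0.109 in development. DESeq2 1.42.0, limma 3.58.1 and other filters, scalings and sample sets served as alternatives, and the fits were tested on simulated data. Named genes were all 10 members and, of the rod, cone and partner lists, the 3 with the highest mean CPM and the 3 with the smallest p per comparison, plus the 3 genes most like each member. Some genes that meet this rule are not reported here, and Kdm6a and markers at 0 are named besides. Members and lists were chosen with earlier results of these data known. Replicates differed beyond sampling noise in every group and each was kept.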

Additional observations from a re-analysis of the deposited data

How the results depend on the processing

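No call reversed under any alternative run. Judged by adjusted p alone, 412 values of single factors stayed on their side of the threshold, 9 lost a call and 9 gained one. Calls dropped by the fold limit of 2, given below, are not counted among these losses. The count of genes called for AAV2-Cre against AAV2-GFP (298 by edgeR, with 3029 at an unadjusted p under 0.05) was 1326 by DESeq2, 456 by limma-voom, 1512 without the low-count filter, 530 with at least 10 counts in every library and 2504 with all 13 libraries in one fit. Leaving out 1 library gave 5 to 283 genes and 0 to 1 factors, and with 1 AAV2-Cre or P21 library left the lone library is assumed to vary like the other groups. Without the filter 5 factors fell (Crx, Crxos, Nrl, Nr2e3 and Neurod1), as did 543 of 28763 genes. With all libraries in one fit 2 fell (Crx and Crxos), as did 1071 of 23844 genes. A fold limit of 2 left 7304 genes and 5 factors for P14 against P1, and 2486 genes and 3 factors for P21 against P14. It dropped Neurod1, Nr2e3, Prdm1 and Thrb from the first comparison, and Neurod1, Rorb and Rxrg from the second. One fit of all libraries gave 2624 genes for P21 against P14, where 4 factors were called. By limma-voom 9 factors were called there, adding Crx, Otx2 and Thrb, with 3684 genes higher and 4136 lower of 20890. Scaling by library size alone moved the median over all genes for P14 against P1 to 0.11, from -0.01.

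Replicate numbers did not pair the libraries, since the correlations of same-numbered deviations lay between -0.051 and 0.022. With the number as a replicate block 255, 13411 and 5255 genes and 1, 9 and 6 factors were called in the 3 comparisons.

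The adult fit rests on 2 against 3 libraries with wide spread, so factors not called there were not shown to be unchanged. Strand was not stated, and reads of overlapping genes on opposite strands cannot be told apart for Otx2 and Neurod1.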
